A study of Homo sapiens with 18 samples.

Results

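Ceramide is built at the endoplasmic reticulum, and 10 genes of the first steps of that route and of their control are described here out of 27574 genes in the tables. They are SPTLC1, SPTLC2 and SPTLC3, the large subunits of serine palmitoyltransferase; SPTSSA, its small activating subunit; ORMDL1, ORMDL2 and ORMDL3, its inhibitors; the ceramide synthases CERS2 and CERS6; and the desaturase DEGS1. The genes were taken by symbol, all 10 were found and all 10 averaged at least 100 normalized counts. SPTLC3 was included for its lower level with dihydrotestosterone in these same data, so its values in that comparison are given as a description without a test.

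Serine palmitoyltransferase joins serine to palmitoyl-CoA, which is the rate-limiting step of sphingolipid synthesis. SPTLC1 pairs with either SPTLC2 or SPTLC3, which carry the catalytic lysine, and the SPTLC3 form accepts shorter acyl chains such as myristoyl-CoA. ORMDL proteins hold the enzyme back when ceramide is plentiful. The product is reduced by KDSR, acylated by a ceramide synthase and then desaturated by DEGS1, which turns dihydroceramide into ceramide. Ceramide is both the parent of sphingomyelin and glycosphingolipids and a lipid tied to growth arrest and cell death, and androgen is known to raise several lipid synthesis genes in prostate cancer cells.

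LNCaP, a prostate cancer cell line whose androgen receptor is mutated but active, was grown as 18 cultures in 6 groups of 3 biological replicates. All cultures had spent 48 h in charcoal-stripped serum, which holds little steroid, and were treated for 6 h. Vehicle cultures received ethanol and DMSO. DHT cultures received 10 nM dihydrotestosterone (DHT), the potent natural androgen, with DMSO. The other groups received 1.5 µM enzalutamide, an androgen receptor antagonist in clinical use, or 3 µM VPC-13789, named only by a code, and were grown with DHT or with ethanol in its place. The doses are stated for the arms with DHT and are taken to be the same without it. All cultures came from 1 line, and a p-value speaks to the spread among such cultures as the authors' fit estimated it.

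The authors' DESeq2 comparisons give log2 changes, their standard errors (SE) and adjusted p-values, and a gene is called at an adjusted p under 0.05. No value per sample was analysed and depth per library is unknown. A mean for each group was recovered from the authors' average over all samples and the 5 log2 changes, and its 95% interval from the SE. The SE of the DHT comparison was 0.27 (log2) at the median of the 10819 genes with a mean of 100 normalized counts or more, and 0.29 at the median of the 10 genes. All 9 LNCaP and luminal prostate markers looked up averaged between 1510 and 27958 normalized counts. Of 10 markers of blood, stromal, endothelial and basal cells 5 were listed, with PTPRC at 0.532 and LYZ at 0.218, and COL1A1 the highest at 316. In bulk RNA fewer expressing cells and less RNA per cell cannot be told apart.

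With DHT, DEGS1 rose and SPTLC3 was lower, while the other 8 genes were not called. DEGS1 had a group mean of 4043 normalized counts (95% interval 3793 to 4311) in vehicle and 6982 (6555 to 7436) with DHT. In the authors' deposited table this was a 1.73-fold rise (log2 0.79, SE 0.07, adjusted p = 1.06e-29). Among the 9 genes that were not chosen on this comparison DEGS1 was the 1 called, where 1.87% of all tested genes were called, 1.47% higher and 0.392% lower. Of the 10819 genes averaging at least 100, DEGS1 had the 137th highest log2 change, and only 98 (0.906%) had an SE as small.

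The promoter of DEGS1 is shown because DEGS1 is the gene of the 10 called with DHT in all 3 settings. RefSeq start windows on GRCh38.p14, from 250 bases before to 50 after the start, were matched for 8 of the 10 genes, and DEGS1 has 2. The first, chr1:224182990-224183289 on the plus strand, is given 5′ to 3′ with capitals at GC boxes, GGGCGG on either strand.
DEGS1 window: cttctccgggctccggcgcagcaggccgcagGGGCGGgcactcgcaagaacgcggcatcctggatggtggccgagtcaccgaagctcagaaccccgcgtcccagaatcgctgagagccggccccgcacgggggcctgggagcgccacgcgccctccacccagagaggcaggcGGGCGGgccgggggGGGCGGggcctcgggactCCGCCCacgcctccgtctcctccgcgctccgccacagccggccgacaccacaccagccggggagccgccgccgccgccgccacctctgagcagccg
This window is 77.3% G or C and holds 39 CpG and 4 GC boxes, and the second DEGS1 window is 80.3% G or C and holds 50 CpG and 0 GC boxes. GC boxes were present in 45.0% of all 35116 windows. AGAACA, the half-site of an androgen response element, was searched on both strands and lies in 14.8% of all windows. It was in 0 of the 2 DEGS1 windows and in none of the windows of the other 7 genes, which says only that these letters are not in those 300 bases.

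SPTLC3 had a group mean of 346 normalized counts (264 to 453) in vehicle and 151 (115 to 200) with DHT, which is 2.28-fold lower. The authors' deposited table gives a log2 change of -1.19 with an SE of 0.29, the 9th lowest of the genes averaging at least 100. SPTLC3 was chosen on this comparison, so that rank is no support for its fall. For DHT within enzalutamide its log2 change was the 36th lowest of the same genes, and within VPC-13789 the 161st. Per kb of exon, SPTLC3 made up 24.2% of the sum of SPTLC2 and SPTLC3 in vehicle and 13.2% with DHT. SPTLC2, the alternative partner of SPTLC1, lay at 127 normalized counts per kb in vehicle and 117 with DHT. On that scale there were 3.14 SPTLC2 for each SPTLC3 in vehicle and 6.60 with DHT. These shares and ratios rest on the libraries that chose SPTLC3. In the other libraries the share went with DHT from 24.0% to 19.0% within enzalutamide, and from 23.8% to 16.1% within VPC-13789. With centring on genes of like GC content the log2 changes with DHT against vehicle were -1.05 for SPTLC3 and 0.85 for DEGS1.

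**Figure D1:**
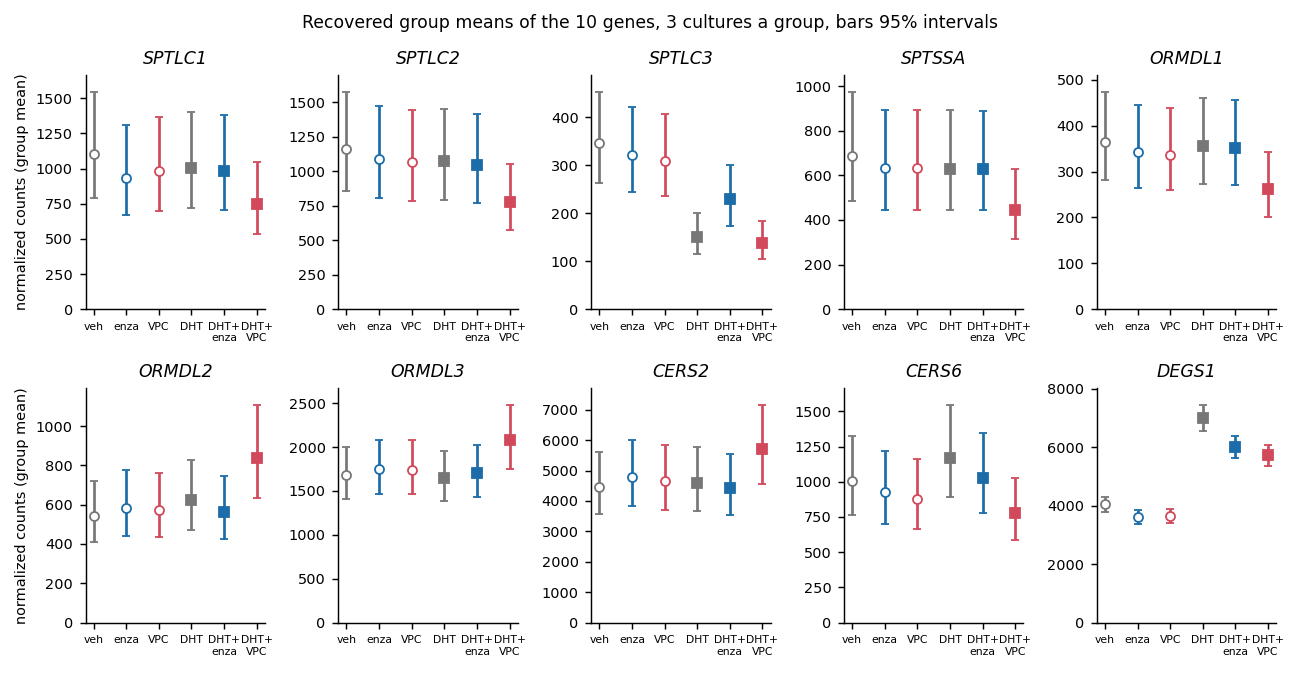
Recovered group mean in normalized counts (vertical axes from 0, one scale per gene) for the 10 genes in vehicle (veh), enzalutamide (enza), VPC-13789 (VPC) and the same with DHT; bars are 95% intervals and filled squares mark DHT. DEGS1 sits at or above 5718 in all groups with DHT and at or below 4043 in those without, SPTLC3 does the opposite at a lower level, and the intervals of the other genes overlap.

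The remaining genes spanned log2 changes from -0.14 to 0.22 with DHT, all with an adjusted p of 0.999 in the authors' deposited table. None of these 8 had an unadjusted p under 0.05, against 1222 (4.43%) of all genes. The median over all 10 genes was -0.04 on the log2 scale, beside 0.01 for genes averaging at least 100. By the authors' deposited table SPTLC1 stood at -0.14 with an SE of 0.35, SPTLC2 at -0.12 with 0.31 and the activator SPTSSA at -0.13 with 0.36. With such errors a change of 1.60-fold in SPTLC1 or of 1.63-fold in SPTSSA would have been needed for an unadjusted p of 0.05, against 1.09-fold in DEGS1. A call at an adjusted p under 0.05 needs a larger change still. At these SE, smaller changes of the enzyme's main subunits were not detectable here.

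Of the inhibitors, ORMDL3 was the most abundant per kb and had the smallest error. It had 1682 normalized counts (1413 to 2002) in vehicle and 1645 (1382 to 1958) with DHT, and stood at -0.03 (SE 0.18) on the log2 scale in the authors' deposited table. By the authors' deposited table ORMDL1 stood at -0.04 with an SE of 0.27 and ORMDL2 at 0.20 with 0.29. CERS2, which makes very long-chain ceramides, had 4472 and 4600 normalized counts in vehicle and DHT. CERS6, which makes palmitoyl ceramide, had 1006 and 1171, a log2 change of 0.22 (SE 0.29) that was not called in the authors' deposited table.

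Whether the responses to DHT were also present in other libraries was read within each compound, by comparing cultures with compound and DHT with cultures given the compound alone. These tests use none of the vehicle and DHT libraries that chose SPTLC3, beyond the normalization and dispersion shared by all samples. Samples given a compound alone were registered in a run of numbers separate from all others. Whether they were cultured or sequenced apart is not known here. Such a difference could not be told apart from DHT within a compound, or from a compound without DHT. The same holds for the difference between responses to DHT with and without a compound. DEGS1 rose with DHT in the presence of enzalutamide, from 3602 normalized counts (3377 to 3841) to 5999 (5631 to 6390), a log2 change of 0.74 (SE 0.07, Wald test, adjusted p = 5.12e-25). It also rose in the presence of VPC-13789, from 3644 (3417 to 3886) to 5718 (5367 to 6091), a log2 change of 0.65 (SE 0.07, Wald test, adjusted p = 2.62e-19). It was the 1 gene of the 10 called within enzalutamide, where 0.464% of all genes were called (0.41% higher), and 1 of 2 within VPC-13789, where 0.772% were (0.584% higher and 0.189% lower). As folds these were 1.67 and 1.57, beside 1.73 without a compound.

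SPTLC3 was called within VPC-13789 and not within enzalutamide. Within VPC-13789 it fell with DHT from 310 normalized counts (236 to 406) to 139 (105 to 184), a log2 change of -1.16 (SE 0.29, Wald test, adjusted p = 0.00965). Across 10777 genes, which are not independent replicates, the response within VPC-13789 had a Spearman rho of 0.77 with GC content, and genes with a GC content like that of SPTLC3, 40.3%, had a median of -0.57. With log2 changes centred on genes of like GC the fall was -0.59 and was no longer called (adjusted p = 0.447), and with centring on GC and SE together it was -0.68 (adjusted p = 0.32). Within enzalutamide the level went from 321 (245 to 421) to 229 (174 to 301), a log2 change of -0.49 (SE 0.28, 95% interval -1.05 to 0.07, Wald test, adjusted p = 1), which was not called. In that comparison 0.371% of the 539 genes of like GC were lower than SPTLC3.

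**Figure D2:**
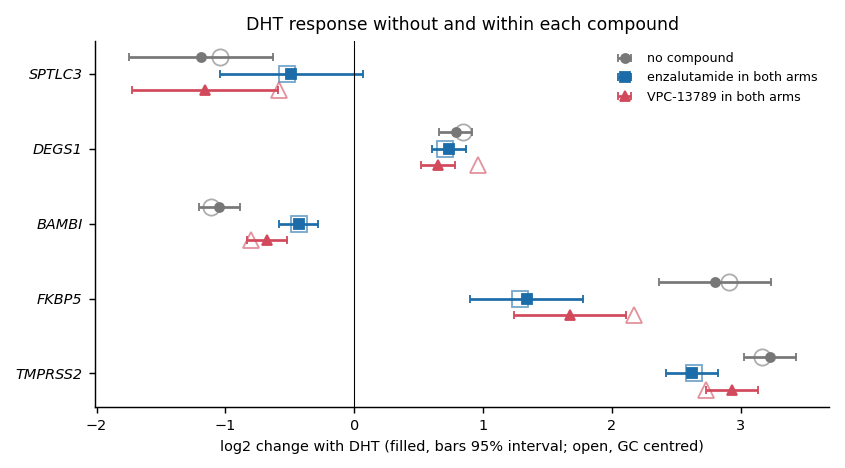
Log2 change with DHT (horizontal axis) for SPTLC3, DEGS1 and the androgen-responsive genes BAMBI, FKBP5 and TMPRSS2, without compound, with enzalutamide in both arms and with VPC-13789 in both arms; bars are 95% intervals and open symbols are values centred on genes of like GC. The 3 values of DEGS1 lie between 0.65 and 0.79, while those of FKBP5 run from 1.34 to 2.80.

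The difference between responses to DHT, with and without each compound, was tested itself. It holds the samples given a compound alone, so the limit on their separate registration applies to each gene here. For DEGS1 the response under enzalutamide minus that without it was -0.05 (SE 0.09, 95% interval -0.24 to 0.13, Wald test, adjusted p = 1). Under VPC-13789 that difference was -0.14 (SE 0.09, 95% interval -0.32 to 0.05, Wald test, adjusted p = 1), and it turned to 0.11 with centring on GC, also not called. The differences under enzalutamide went with GC as well, with a Spearman rho of -0.70. Genes with a GC content like that of DEGS1 had a median of 0.10 there. Both intervals of DEGS1 leave out -0.79, the size at which the response would have been lost. This restates its rise with DHT within each compound and is no further test. For comparison FKBP5, the co-chaperone of steroid receptors, had a difference of -1.46 (SE 0.32, Wald test, adjusted p = 0.0103) under enzalutamide, and BAMBI, a decoy receptor lowered by DHT, one of 0.62 (SE 0.11, adjusted p = 0.000177). TMPRSS2, a membrane protease raised by androgen, had one of -0.61 (SE 0.15, Wald test, adjusted p = 0.0475). Under VPC-13789 the differences were -1.13 (SE 0.32) for FKBP5, 0.37 (SE 0.11) for BAMBI and -0.29 (SE 0.15) for TMPRSS2, none of them called (Wald test, adjusted p = 1). None of the 10 genes was called in the test for enzalutamide, where 0.0762% of all genes were, or for VPC-13789, where 0% were. At an unadjusted p under 0.05 there were 0 of the 10 genes in either test, and 355 and 394 of all genes. For SPTLC3, whose values here hold the libraries that chose it, the differences were 0.70 (SE 0.40) and 0.03 (SE 0.41).

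Against DHT alone, none of the 10 genes was called with enzalutamide and DHT, where 0.428% of all tested genes were called. Leaving out SPTLC3, only DEGS1 of the 10 had an unadjusted p under 0.05, beside 586 (2.13%) of all genes. By the authors' deposited table DEGS1 was at -0.22 (SE 0.07), with an adjusted p of 0.152. The authors' deposited table puts SPTLC3 at 0.60 with an SE of 0.29, measured against the DHT libraries that chose it. The other 8 genes lay between -0.19 and 0.05.

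VPC-13789 with DHT changed 1 of the 10 genes against DHT alone, where 0.275% of all tested genes were called (0.249% lower). DEGS1 fell from 6982 to 5718 normalized counts, which the authors' deposited table gives as -0.29 on the log2 scale (SE 0.07, adjusted p = 0.00918), a call that did not hold after centring on GC content. SPTLC3 stood at -0.13 (SE 0.29) in the authors' deposited table, at 139 normalized counts against 151. The other 8 ran from -0.59 to 0.42, with adjusted p-values from 0.406 to 0.420 in the authors' deposited table. CERS6 was the lowest of them (-0.59, SE 0.29, unadjusted p = 0.0404) and ORMDL2 the highest (0.42, SE 0.29, unadjusted p = 0.15), in the authors' deposited table.

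The spread of these values went in part with GC content. Across all genes averaging at least 100 the log2 change with VPC-13789 and DHT had a Spearman rho of 0.82 with GC, and its median by GC bin (20 bins) ran from -0.66 in the lowest bin to 0.52 in the highest. SPTLC1, SPTLC2, SPTSSA, ORMDL1 and CERS6, all with a GC content of 43.8% or less, had values between -0.59 and -0.42, while CERS2 and ORMDL3, at 53.8% and 54.0%, had 0.31 and 0.34. ORMDL2, at 47.1%, had the highest value, 0.42, where genes of like GC had a median of -0.07. SPTLC3, at 40.3%, stood at -0.13 beside a median of -0.57, and DEGS1, at 43.6%, at -0.29 beside -0.33. After centring on genes of like GC the 8 genes lay between -0.13 and 0.49, and DEGS1 was at 0.046 and no longer called (adjusted p = 1). The part of GC content in these results was not tested.

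The GC trend differed with the precision of a gene. Among the 539 genes with an SE up to 0.09 its rho was 0.17, with medians of -0.08 and -0.05 at the lowest and highest GC (first and last of 10 bins). Among the 2694 genes with an SE from 0.38 its rho was 0.58, with medians of -0.73 and 0.64. The groups between had a rho of 0.35, 0.62 and 0.69 with rising SE. DEGS1, with an SE of 0.07, belongs to the first of these groups, and SPTLC3, with an SE of 0.29, to the one with a rho of 0.69. Centred on genes of like GC and like SE, a step chosen after seeing the data, DEGS1 was at -0.19 with VPC-13789 and DHT and was not called (adjusted p = 0.148). Its log2 changes with DHT were then 0.75 without compound, 0.68 within enzalutamide and 0.67 within VPC-13789, each still called. With centring on GC alone they were 0.85, 0.71 and 0.96, each called, so the order of the 3 responses depends on the centring.

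**Figure D3:**
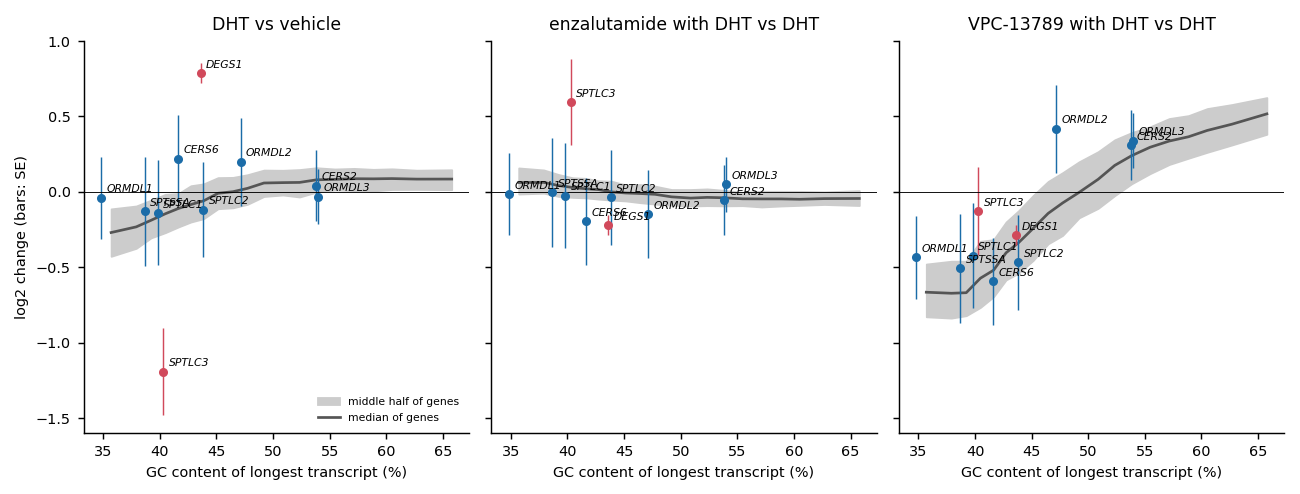
Log2 change (vertical axis, bars SE) against GC content of the longest transcript for the 10 genes, with SPTLC3 and DEGS1 in red, over the median (line) and interquartile range (grey) of genes in 20 GC bins, for DHT and for each compound added to DHT. With VPC-13789 the median climbs from -0.66 to 0.52, and ORMDL2 (0.42) is the gene of the 10 farthest above it.

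Compared directly, cultures with VPC-13789 and DHT and cultures with enzalutamide and DHT gave 0 called genes among the 10, where 0.0109% of all genes were called. The log2 difference, VPC-13789 minus enzalutamide, was -0.07 for DEGS1 (SE 0.07, 95% interval -0.20 to 0.06, Wald test, adjusted p = 0.611). It was 0.27 and called after centring on GC (adjusted p = 0.00418), and 0.01 after centring on GC and SE together. For SPTLC3 it was -0.72 (SE 0.29, 95% interval -1.29 to -0.15, Wald test, unadjusted p = 0.0127, adjusted p = 0.51), and -0.12 after centring on GC. ORMDL2 came next in size at 0.57 (SE 0.29, Wald test, unadjusted p = 0.0516). SPTLC3 was the 1 gene of the 10 with an unadjusted p under 0.05, beside 1515 (5.49%) of all genes. The compounds were given at different concentrations.

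Without DHT none of the 10 genes was called with either compound, and the shares of all genes called were 0.00363% for enzalutamide and 0% for VPC-13789. DEGS1 was the 1 gene of the 10 with an unadjusted p under 0.05 with each compound, beside 186 and 212 of all genes. The authors' deposited tables, which share the vehicle libraries, put it at -0.17 with enzalutamide (SE 0.07, unadjusted p = 0.0123, adjusted p = 1) and at -0.15 with VPC-13789 (SE 0.07, unadjusted p = 0.0244, adjusted p = 1). For SPTLC3 the authors' deposited tables give -0.11 and -0.16, each with an SE of 0.28. Between the compounds without DHT the 10 genes differed by -0.07 to 0.06 on the log2 scale, 0 were called and 0 had an unadjusted p under 0.05, with 0% and 252 of all genes.

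Ordered by level, DEGS1 was highest with DHT alone, then with DHT and enzalutamide, DHT and VPC-13789, vehicle, VPC-13789 and enzalutamide. In that order the step from DHT with VPC-13789 to vehicle is the wide one, and no pair of neighbours above it or below it was called different, though the intervals of DHT alone and of DHT with enzalutamide do not overlap. SPTLC3 ran from vehicle through enzalutamide and VPC-13789 alone, at 346, 321 and 310 normalized counts, to DHT with enzalutamide at 229, DHT at 151 and DHT with VPC-13789 at 139. Its first 3 levels differed by less than their intervals, as did the last 2.

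Levels between genes were compared per kb of exon, as the mean of the 6 groups. DEGS1 was the highest at 1987 normalized counts per kb, followed by CERS2 at 1029, ORMDL3 at 471, ORMDL2 at 221 and SPTSSA at 219. SPTLC1 and SPTLC2, which form the common enzyme, lay close together at 148 and 113, CERS6 at 133 and ORMDL1 at 84.7, and SPTLC3 was the lowest of the 10 at 29.3. The 3 inhibitors together came to 734 per kb in vehicle and 751 with DHT, several times the level of any large subunit. Exon length is the union over all annotated transcripts, which understates a gene whose long forms are not used.

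**Figure D4:**
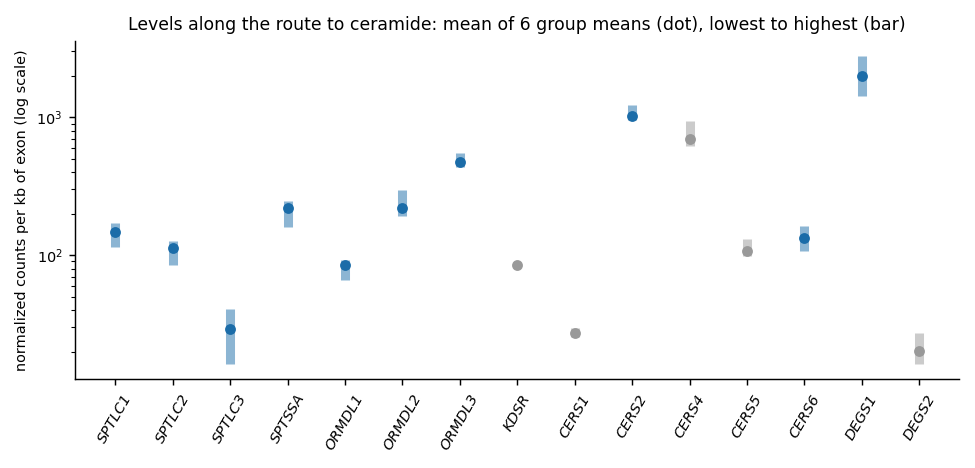
Normalized counts per kb of exon (log axis) along the route to ceramide; dots are the mean of the 6 group means, bars run from the lowest to the highest group, blue marks the 10 genes and grey other genes of the route. DEGS1 is highest at 1987 and SPTLC3 has the longest bar among the genes drawn, from 16.3 to 40.6.

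Of 44 other genes of sphingolipid metabolism 43 were in the tables and 30 averaged at least 100. None was called in any of the 5 deposited comparisons or the 6 derived ones. The shares of all tested genes called there ran from 0% to 1.87%, so a count of 0 lies near those shares. An adjusted p was given for 39 of the 43 with DHT, 39 with enzalutamide and DHT, and 38 with VPC-13789 and DHT. Genes named from this list were picked after their values were seen. With DHT the median log2 change of the 43 was -0.04, and the 30 ran from -0.70 for the sphingomyelin synthase gene SGMS1 to 0.48 for the protein palmitoyltransferase gene ZDHHC9. At an unadjusted p under 0.05 the numbers were 1 of 43 with DHT, 0 with enzalutamide and DHT, 3 with VPC-13789 and DHT, and 0 with each compound alone. The shares of all genes at that level were 4.43%, 2.13%, 5.48%, 0.675% and 0.769%, in the same order. SGPL1, which encodes the lyase that ends the pathway, had the lowest unadjusted p with DHT among the well-expressed ones, 0.00869, and the authors' deposited table puts its log2 change at -0.17 (SE 0.07, adjusted p = 0.307). It stood at -0.19 and -0.16 within enzalutamide and VPC-13789, also not called (Wald test, adjusted p = 0.482 and 0.578). KDSR, the reductase between serine palmitoyltransferase and the ceramide synthases, had group means from 764 to 801 normalized counts, and the authors' deposited table puts its log2 change with DHT at -0.05 (95% interval -0.21 to 0.11).

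Other isoforms were read in the same way, and were also picked after their values were seen. Among ceramide synthases CERS4 averaged 696 normalized counts per kb, second to CERS2, with CERS5 at 107 and CERS1 at 27.2, and CERS3 averaged 0.333 normalized counts in all. DEGS2, the other desaturase gene, was at 20.3 per kb. The alternative small subunit SPTSSB averaged 0.706 normalized counts, against 609 for SPTSSA.

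The 5 genes whose 5 log2 changes lay nearest to those of SPTLC3, out of those with a mean of 100 or more, were LRRN1, COL5A2, TULP4, CDK8 and ZBTB43. Their root mean square differences from SPTLC3 were between 0.07 and 0.12 on the log2 scale. With DHT they stood between -1.13 and -0.98, and none was called, with adjusted p-values from 0.0507 to 0.442 in the authors' deposited table. DHT against vehicle is among the 5 log2 changes used to pick these genes, so their low values with DHT follow from the choice. The comparisons share libraries, so this likeness is over fewer independent values than it counts.

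Where the genes lie bears on how their reads can be counted. On GRCh38 DEGS1 spans 224175756 to 224193441 on the plus strand of chromosome 1, and SPTLC3 spans 13008979 to 13169103 on the plus strand of chromosome 20, and neither shares exon bases with another annotated gene. ORMDL2 on chromosome 12 shares 32.7% of its exon bases with DNAJC14 on the opposite strand, and CERS2 on chromosome 1 shares 20.4% with SETDB1. Whether counting used strand is not given in the sources used here, so ORMDL2 and CERS2 carry that uncertainty. With VPC-13789 and DHT, DNAJC14 stood at -0.12 (SE 0.10) where ORMDL2 stood at 0.42, and SETDB1 at 0.26 (SE 0.20) where CERS2 stood at 0.31. CERS6 shares 41.4% of its exon bases with CERS6-AS1, which averaged 0.331 normalized counts.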

How the data were processed

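BGISEQ-500 libraries of polyadenylated RNA were made from each culture, per the labels. The submitters' processing notes name FastQC, STAR 2.6.1c, featureCounts, DESeq2 and the build GRCh38.p12. No source used here gives the annotation release or the strand setting. Each of the 5 tables has 27599 rows, and 25 with a date for a symbol were left out. The authors deposited an average normalized count over all samples (a signal on a linear scale), log2 fold changes with SE, a Wald score, and p-values with adjusted p-values. Independent filtering removed none of the 10 genes.

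Group means and dispersions were recovered from these; the dispersion of each of the 10 genes agreed between tables within 0.779%. For DHT within a compound the DHT and vehicle groups cancel, and the variance is the sum of the squared SE of both compound comparisons less that of DHT. Differences between compounds used the mean of both squared SE, and differences of responses their sum, with Benjamini-Hochberg (BH) adjustment over 27574 genes. The Wald steps for DHT within a compound and for differences between compounds were run on simulated data. Those data were drawn with the recovered variances, so the simulation does not check these variances against real cultures. The differences of responses were not simulated. GC content and positions came from GENCODE release 29 on GRCh38, matched for 27391 genes (99.3%) and all 10 genes. Scripts ran under Python 3.11.15 with numpy 2.4.6, scipy 1.17.1 and pandas 2.3.3.

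The 10 genes, the pathway list and the tests were chosen with earlier results of these data known. Named genes were the 10, pathway genes called in any comparison, the 5 nearest to SPTLC3, and TMPRSS2, FKBP5 and BAMBI as references. No pathway gene was called, and those named in the text fall outside this rule and were chosen after their values were seen. Library depth is unknown, and the SE stands for precision. Alternatives were other thresholds, adjustment sets, filtering, variance and centring.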

Additional observations from a re-analysis of the deposited data

How the results depend on the processing

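No paired analysis was possible because the tables hold no values per sample, and for the same reason no replicate could be left out. Counts of called genes among the 10 were unchanged in all 11 comparisons at an adjusted p under 0.1, with p adjusted over genes averaging at least 100 and with centring on the median. The same held without independent filtering (5 comparisons) and with the variance from recovered dispersions (the 2 between compounds). The count for DHT against vehicle includes SPTLC3, which was chosen on it, so only the call of DEGS1 counts there as a test. GC centring changed 3 counts: 0 in place of 1 for VPC-13789 with DHT, 1 in place of 2 for DHT within VPC-13789, and 1 in place of 0 for VPC-13789 against enzalutamide with DHT. With GC and SE centring, added after seeing the data, the first 2 of these were 0 and 1 and the third was 0. Under GC centring the log2 change of DEGS1 turned from -0.29 to 0.046 and that of SPTLC3 from -0.13 to 0.45 with VPC-13789 and DHT, and the DEGS1 difference between compounds with DHT from -0.07 to 0.27 (adjusted p = 0.00418). Under GC and SE centring the first 2 were -0.19 and 0.36, and the DEGS1 difference was 0.01. GC centring also made KDSR higher with VPC-13789 and DHT (0.50, adjusted p = 6.17e-07, from -0.02), with DHT within VPC-13789 (0.45, adjusted p = 1.33e-05, from -0.05) and against enzalutamide with DHT (0.48, adjusted p = 2.71e-06, from -0.06), at an SE of 0.08 in each. Of 110 log2 changes of the 10 genes, 37 changed sign under GC centring, 34 under GC and SE centring and 3 under median centring, and in all of these but the 2 of DEGS1 given above under GC centring the value was called under neither setting. Among the uncalled ones the DEGS1 difference of responses with VPC-13789 went from -0.14 to 0.11 under GC centring. The cause was not tested. The DHT rise of DEGS1 stayed called in each of the 3 settings, with all the centring tried. At the SE of the DHT comparison, changes under about 1.6-fold in SPTLC1 and SPTSSA could not have reached an unadjusted p of 0.05. A call by adjusted p needs a larger change still.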
